A study of Mus musculus with 10 samples.

Results

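The urea cycle and amino acid catabolism were followed through 37 genes of mouse liver after ethanol gavage. The genes were listed by name, by amino acid pathway. For 33 of the 37 genes a probe was found through its RefSeq accession, with 1 probe per gene, that of the highest mean signal. Of these, 26 were tested among 26124 genes. Of the 26124, 15120 had a gene symbol, and the others were kept under the name given on the array and are also called genes here. No probe was found in this way for Cps1, Amdhd1, Haao and Gcdh. Another 7 genes (Asl, Arg1, Nags, Hgd, Kmo, Dbt and Aldh6a1) had a probe, but outlier marks set by the scanner software left out their spots on so many arrays that fewer than 2 values were left in a group. All 26 tested genes stood well above background in the liver channel of all 10 arrays, so none passed the filter on dim probes through 1 group alone.

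Livers came from male C57BL/6N mice, an inbred strain, and each array held liver RNA in Cy5 against a common reference RNA in Cy3. The reference was a commercial mixture of mouse RNA, and the labels also give liver as its tissue. The 3 groups were mice gavaged with 5 g/kg ethanol (4 arrays), mice gavaged with 7 g/kg ethanol (3 arrays) and controls gavaged with maltose of the calories of 5 g/kg ethanol (3 arrays). The controls were therefore matched in calories to the lower dose and not to the higher, and dose and excess calories cannot be told apart at 7 g/kg. By their barcodes the arrays lay on 4 slides, with no maltose array on slide 1 and no 7 g/kg array on slide 3. The labels give neither the age of the mice nor the time between gavage and collection, and nothing in them says whether the arrays of a group came from separate mice, so p-values measure only the spread between arrays.

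Hepatocytes convert the ammonia released from amino acids into urea, in a cycle that starts in the mitochondrion and ends in the cytosol. The carbon skeletons of most amino acids are also broken down in liver, by dedicated pathways for histidine, tyrosine, tryptophan, proline and lysine, while branched-chain amino acids are transaminated mostly elsewhere and their ketoacids oxidised in liver and other tissues. Many of these enzymes are abundant in hepatocytes, and genes such as Tat and Sds are classic targets of fasting hormones.

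Values are log2 ratios of liver over reference signal, and a change is the difference of 2 group means on that scale. A pair of changes or medians with no dose beside it gives 5 g/kg and then 7 g/kg, each minus maltose, and values by array run in the order of the replicate numbers. A gene passed when its limma p, adjusted by Benjamini-Hochberg over all 26124 genes, was under 0.05, two-sided. Median signals in the liver channel ran from 121 to 219 units, with local backgrounds of 21 to 24, and 67.3% to 86.3% of spots stood well above background. No spot was saturated, and the number of arrays limits the precision. Markers of liver cell types were read on the same arrays. All 8 tested hepatocyte markers stood well above background on all 10 arrays, and their mean log2 ratio was 0.04 to 0.22 on the maltose arrays, 0.43 to 0.74 at 5 g/kg and 0.50 to 0.71 at 7 g/kg. Of these 8 markers, 1 was higher at 5 g/kg (12.5%, all genes 3.8%). At 7 g/kg 3 were higher and 1 lower (50%, all genes 9.01%). The highest change was that of Fgb, a fibrinogen chain and acute-phase gene, at 1.24 and 2.64, which raises the list mean. The median change of the list was 0.34 and 0.26. At 7 g/kg 5 markers lay above 0 and 3 below it, namely Apoh (−0.47), Apob (−0.25) and Apoa1 (−0.16). In bulk liver, fewer cells of a type and less RNA per cell cannot be told apart.

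The 4 members with the lowest changes at 7 g/kg were Oat, Hal, Hpd and Etnppl. The 250 bases before their RefSeq start sites (GRCm38.p6) are printed below, with that of Tat, which rose, to show the sequence next to which these changes were read. Capitals mark matches to the motifs searched on both strands, namely TTGCNNAA for C/EBP, the promoter box read as CCAAT and the core promoter box read as TATAAA, printed on the gene's own strand. Etnppl has 2 start sites in the table, and the window of the second is shown.
Oat (chr7:132576399-132576648, minus strand): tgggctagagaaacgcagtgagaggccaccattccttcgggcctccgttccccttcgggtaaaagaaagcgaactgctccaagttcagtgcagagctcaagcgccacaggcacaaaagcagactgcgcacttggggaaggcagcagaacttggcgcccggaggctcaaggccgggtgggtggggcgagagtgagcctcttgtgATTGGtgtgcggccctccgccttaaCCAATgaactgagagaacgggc
Hal (chr10:93488518-93488767, plus strand): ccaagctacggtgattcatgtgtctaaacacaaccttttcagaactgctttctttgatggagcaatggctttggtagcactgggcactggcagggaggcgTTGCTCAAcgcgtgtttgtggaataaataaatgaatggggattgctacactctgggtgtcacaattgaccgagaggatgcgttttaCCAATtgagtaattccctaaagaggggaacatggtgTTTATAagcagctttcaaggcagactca
Hpd (chr5:123182724-123182973, minus strand): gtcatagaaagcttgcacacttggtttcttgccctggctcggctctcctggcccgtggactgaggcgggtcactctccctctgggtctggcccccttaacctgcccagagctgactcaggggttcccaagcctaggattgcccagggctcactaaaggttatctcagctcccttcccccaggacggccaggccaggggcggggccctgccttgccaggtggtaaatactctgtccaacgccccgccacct
Etnppl (chr3:130617325-130617574, plus strand): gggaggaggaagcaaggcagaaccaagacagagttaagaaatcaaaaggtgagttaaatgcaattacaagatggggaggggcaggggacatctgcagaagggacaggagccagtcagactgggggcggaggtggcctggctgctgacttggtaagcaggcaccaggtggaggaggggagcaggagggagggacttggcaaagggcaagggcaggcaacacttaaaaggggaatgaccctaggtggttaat
Tat (chr8:109990186-109990435, plus strand): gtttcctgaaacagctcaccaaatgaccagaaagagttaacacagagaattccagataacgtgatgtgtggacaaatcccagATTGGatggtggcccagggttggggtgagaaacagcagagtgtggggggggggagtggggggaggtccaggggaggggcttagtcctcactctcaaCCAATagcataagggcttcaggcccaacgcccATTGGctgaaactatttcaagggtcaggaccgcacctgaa
The Hal window held TTGCTCAA, a C/EBP match 143 to 150 bases before the start, CCAAT at 60 to 64 bases and a TATA box on the opposite strand at 23 to 28 bases. The Oat window held 2 CCAAT matches and that of Tat 3, while those of Hpd and Etnppl held none of the motifs. Of the 29 member genes with a window in the RefSeq table, 14 held CCAAT, 4 held TTGCNNAA and 4 held TATAAA, against 33.8%, 9.56% and 12.4% of all 32851 windows of this length. A member gene counted if any of its windows matched, while the shares over all windows count single windows, so the units differ. A cAMP response element (TGACGTCA), a glucocorticoid response element, an HNF1 motif, an HNF4 motif (CAAAGTCCA) and a PPAR response element were in no member window and in 1.55%, 0.387%, 0.00913%, 0.384% and 0.338% of all windows. A match describes these letters only, and no match says only that they are not in this window. 

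More members fell than rose at 7 g/kg, among them the ornithine, histidine and tyrosine enzymes Oat, Hal and Hpd. At 7 g/kg, 10 of 26 members passed (38.5%), against 9.01% of all genes: 8 were lower (30.8%, all genes 4.35%) and 2 higher (7.69%, all genes 4.66%). At 5 g/kg, 6 of 26 passed (23.1%), against 3.8% of all genes: 4 were lower (15.4%, all genes 1.57%) and 2 higher (7.69%, all genes 2.23%). The share over all genes was larger among the 19850 well above background on all 10 arrays, as all 26 members were. There 5.14% passed at 5 g/kg and 11.9% at 7 g/kg by limma, with 6 and 11 members. The lower members were enzymes of ornithine, histidine, branched-chain ketoacid and phosphoethanolamine breakdown at both doses, with glutaminase, Ivd of leucine breakdown and 2 enzymes of tyrosine breakdown at 7 g/kg. Both comparisons use the same 3 maltose arrays. The members were chosen with earlier results of these data known, so these shares describe the members and test no excess over all genes. The median change of the 26 members was −0.16 at 5 g/kg and −0.23 at 7 g/kg, beside 0.0026 and 0.012 over all genes. Whatever the p, 18 of 26 members (69.2%) lay below 0 in each of the 3 comparisons, against 49.4% of all genes at 5 g/kg, 47.4% at 7 g/kg and 48.7% between the doses. Between the doses, 2 members passed, Oat and Hpd, both lower at 7 g/kg (7.69%), against 1.57% of all genes (0.907% lower and 0.662% higher). None was higher at 7 than at 5 g/kg by limma, also at an unadjusted p under 0.05, while 8 were lower at that p.

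Groups did not overlap in 13 of 26 members at 5 g/kg against maltose (50%, all genes 16.9%), in 17 at 7 g/kg against maltose (65.4%, all genes 25.4%) and in 7 between the doses (26.9%, all genes 11%). Relative to the mean of the maltose arrays, the median over the members lay at −0.05 to 0.07 on the maltose arrays (replicate 1 highest), at −0.33 to −0.04 at 5 g/kg and at −0.21 to −0.18 at 7 g/kg. Replicate 3 of 5 g/kg was the lowest of all arrays, at −0.33, and replicate 2 of 5 g/kg, at −0.04, lay among the controls. Replicate 3 of 5 g/kg shared its slide with no maltose array. Within slides 2, 3 and 4 the median member difference of 5 g/kg from maltose was −0.18, −0.12 and 0.02. For 7 g/kg it was −0.29 and −0.18 within slides 2 and 4. The 5 g/kg count depended on the source of the values: none of the 6 passed by limma on the scanner software's processed signals (11 members at an unadjusted p under 0.05), the authors' series table (12) or the liver channel alone (8), with adjusted p of 0.055 to 0.42 for these 6. At 7 g/kg the corresponding counts were 6, 8 and 4. The 5 g/kg split also depended on the controls: without maltose replicate 1, 2 members passed, both higher and 0 lower (limma; 14 members at an unadjusted p under 0.05 in either direction), and without maltose replicate 2 or 3, 3 members passed, all lower. At 7 g/kg, 6 members passed without maltose replicate 3, all lower.

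**Figure D1:**
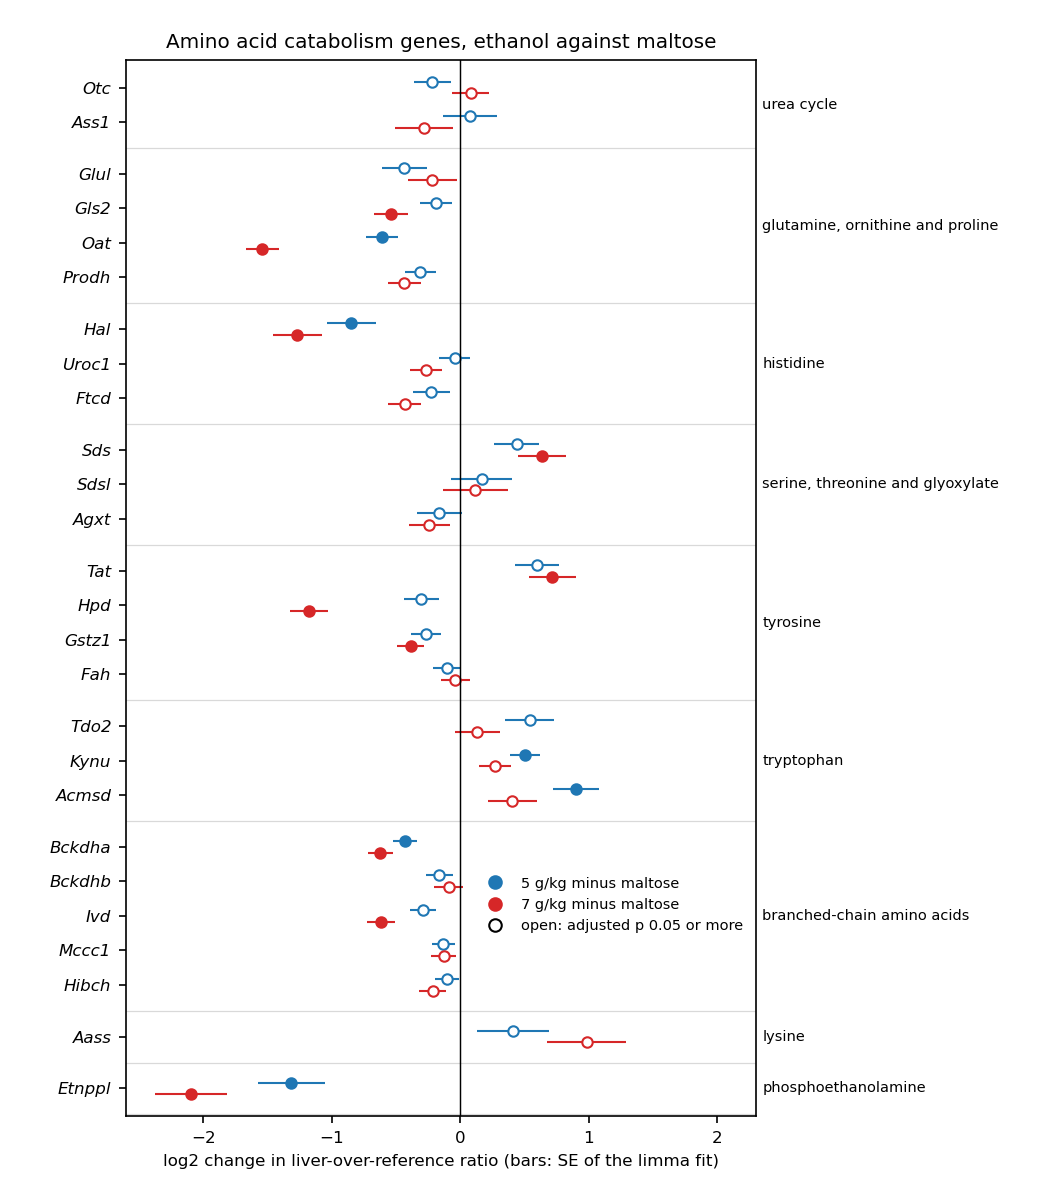
Log2 change of the liver-over-reference ratio (x axis) of the 26 tested members by pathway, with 5 g/kg minus maltose in blue and 7 g/kg minus maltose in red. Points are differences of group means, bars are their SE and filled points passed the test; Etnppl, Oat, Hal and Hpd lie furthest left at 7 g/kg, at −2.09 to −1.18.

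Of the urea cycle itself, neither of the 2 tested genes passed in any comparison. Otc, which joins carbamoyl phosphate to ornithine, read −0.38, 0.02 and −0.15 on the maltose arrays (replicates 1 to 3 in this order), −0.38, −0.66 and −0.14 at 5 g/kg (replicates 1, 3 and 4), and −0.03, −0.03 and −0.20 on the 7 g/kg arrays. Ass1, which joins citrulline to aspartate, read 0.63, −0.48 and 0.35 on the maltose arrays, −0.02, 0.45, 0.05 and 0.50 at 5 g/kg, and −0.12, −0.22 and −0.01 on the 7 g/kg arrays. For both genes the groups overlapped. The change of Otc was −0.22 (SE 0.14) at 5 g/kg and 0.08 (SE 0.14) at 7 g/kg, and that of Ass1 0.08 (SE 0.21) and −0.28 (SE 0.22). Without the low maltose replicate 2 the Ass1 values were −0.24 (adjusted p 0.558 by limma) at 5 g/kg, with the sign turned, and −0.61 (adjusted p 0.0484) at 7 g/kg. A second probe of Otc gave −0.11 and 0.25. At an unadjusted p under 0.05 the count for the 2 genes was also 0.

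The other urea cycle genes with a probe could be read only with the outlier-marked spots kept, which were 6 of 10 arrays for Asl and Nags and 4 of 10 for Arg1. On that reading Arg1, the arginase that releases urea, was at 0.34, −0.21 and 0.02 on the maltose arrays, 0.43, 0.42, 0.51 and 0.25 at 5 g/kg, and 0.14, 0.40 and 1.21 on the 7 g/kg arrays, where replicate 3 stood above the rest. Its change was 0.35 (SE 0.20) at 5 g/kg and 0.53 (SE 0.22) at 7 g/kg, with an adjusted p of 0.17 at the higher dose. Asl, which splits argininosuccinate, had log2 differences of 0.21 (SE 0.20) and −0.20 (SE 0.21). Nags, which makes the activator of the first enzyme of the cycle, gave 0.06 (SE 0.13) at 5 g/kg, and its 7 g/kg mean was at the control mean within an SE of 0.14. None of these passed.

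Ornithine aminotransferase fell in steps with dose. Oat, which takes ornithine out of the cycle toward glutamate and proline, read 0.66 and 0.54 on the maltose arrays (replicates 1 and 3), 0.13, −0.10 and −0.05 at 5 g/kg (replicates 1, 3 and 4), and −1.04, −0.82 and −0.95 on the 7 g/kg arrays. The 3 groups did not overlap. The marked spots of maltose replicate 2 and 5 g/kg replicate 2 were left out. The change was −0.61 (SE 0.13, limma adjusted p 0.0191, n = 3 and 2) at 5 g/kg, −1.54 (SE 0.13, adjusted p 1.555e-05), 2.9-fold lower, at 7 g/kg, and −0.93 (SE 0.11, adjusted p 0.00135) between the doses. At 5 g/kg the change was −0.55 without maltose replicate 1 and −0.67 without maltose replicate 3, each with 1 maltose value left. The limma adjusted p rose to 0.0601 without 5 g/kg replicate 3. Within the slide that held maltose and 7 g/kg values the difference was −1.49, and within the 2 slides that held maltose and 5 g/kg values it was −0.60 and −0.53.

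Liver glutaminase was lower at 7 g/kg. Gls2, which releases ammonia from glutamine, read 0.32, 0.04 and 0.18 on the maltose arrays, −0.11, 0.12, −0.15 and 0.09 at 5 g/kg, and −0.61, −0.21 and −0.27 on the 7 g/kg arrays. All 7 g/kg arrays lay under all others, with replicate 1 lowest, and 5 g/kg overlapped the controls. The change was −0.54 (SE 0.13, limma adjusted p 0.0178) at 7 g/kg and −0.19 (SE 0.12) at 5 g/kg. It missed the threshold with slide as a block (adjusted p 0.0575), without maltose replicate 1 (0.0891), maltose replicate 3 (0.0543) or 7 g/kg replicate 1 (0.0813, change −0.41). Prodh, which oxidises proline, gave −0.31 (SE 0.12) at 5 g/kg and −0.43 (SE 0.13, adjusted p 0.0532) at 7 g/kg. It passed without 5 g/kg replicate 2 (adjusted p 0.0474) or 7 g/kg replicate 3 (0.0467, change −0.51). Glul, the glutamine synthetase of pericentral hepatocytes, gave −0.43 (SE 0.18) at 5 g/kg and −0.22 (SE 0.19) at 7 g/kg, where replicate 2 read −0.72 and the other two 0.04 and 0.09. Of the 8 tested pericentral markers 1 was higher and 3 lower at 7 g/kg (50%, all genes 9.01%). None passed at 5 g/kg by limma (2 lower at an unadjusted p under 0.05). The mean of the list was −0.19 to −0.07 on maltose, −0.28 to −0.10 at 5 g/kg and −0.29 to −0.05 at 7 g/kg. The part of these markers in the Glul values was not tested.

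In histidine breakdown the first enzyme fell. Hal, the histidase that removes ammonia from histidine, read 1.04, 0.43 and 0.41 on the maltose arrays, −0.06, −0.44 and −0.17 at 5 g/kg (replicates 1, 3 and 4; the marked spot of replicate 2 was left out), and −1.02, −0.55 and −0.36 on the 7 g/kg arrays. Both ethanol groups lay below every control, and they overlapped each other. The change was −0.85 (SE 0.19, limma adjusted p 0.0261), 1.8-fold lower, at 5 g/kg and −1.27 (SE 0.19, adjusted p 0.001), 2.41-fold lower, at 7 g/kg. At 5 g/kg the adjusted p was 0.121 without maltose replicate 1, the highest control, and 0.0999 without 5 g/kg replicate 3. Within slides the differences were −1.09 and −0.58 for 5 g/kg, and −1.45 and −0.77 for 7 g/kg. The next enzymes did not pass: Uroc1, the urocanase, gave −0.04 (SE 0.12) and −0.27 (SE 0.13), and Ftcd, which passes the formimino group to folate, −0.23 (SE 0.15, n = 2 and 3) and −0.43 (SE 0.13, adjusted p 0.0602) at 5 and 7 g/kg. Without 7 g/kg replicate 1, Ftcd passed at 7 g/kg (−0.52, adjusted p 0.0443).

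Of tyrosine breakdown, RNA of the first enzyme was higher and that of the second lower at 7 g/kg. Tat, the aminotransferase that starts the pathway, read 0.13, −0.54 and −0.13 on the maltose arrays, 0.15, 0.80, 0.25 and 0.47 at 5 g/kg, and 0.42, 0.44 and 0.75 on the 7 g/kg arrays. All ethanol arrays lay above all controls, the lowest of them close to maltose replicate 1. The change was 0.59 (SE 0.17, limma adjusted p 0.0745) at 5 g/kg and 0.72 (SE 0.18, adjusted p 0.0234) at 7 g/kg. The 7 g/kg change missed the threshold with slide as a block (limma adjusted p 0.0521). It also missed without maltose replicate 2 (0.11, change 0.54), maltose replicate 3 (0.0581) or 7 g/kg replicate 3 (0.0966). The adjusted p was 0.134 on processed signals, 0.168 on the series table and 0.0767 with median centring in place of loess. On the liver channel alone the change was 0.20 (adjusted p 0.802).

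Hpd, the dioxygenase that turns hydroxyphenylpyruvate into homogentisate, read 0.79, 0.18 and 0.41 on the maltose arrays, 0.31, 0.19, −0.07 and 0.20 at 5 g/kg, and −0.78, −0.64 and −0.73 on the 7 g/kg arrays. The 7 g/kg arrays lay close together and far below all others, while 5 g/kg overlapped the controls. The change was −0.30 (SE 0.14, limma adjusted p 0.297) at 5 g/kg and −1.18 (SE 0.15, adjusted p 0.000149), 2.26-fold lower, at 7 g/kg. Between the doses it was −0.87 (SE 0.14, adjusted p 0.00436). On the liver channel alone the difference between the doses was −0.67 with an adjusted p of 0.385. Within slides the difference from maltose at 7 g/kg was −1.15 and −0.96.

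Gstz1, the maleylacetoacetate isomerase, read 0.17, 0.26 and 0.31 on the maltose arrays, −0.08 and 0.04 at 5 g/kg (replicates 3 and 4), and −0.12, −0.07 and −0.23 on the 7 g/kg arrays. Every ethanol array lay below every control. The change was −0.27 (SE 0.12, n = 2 and 3) at 5 g/kg and −0.39 (SE 0.11, limma adjusted p 0.0402) at 7 g/kg. The 7 g/kg call was lost with slide as a block (adjusted p 0.119) and on leaving out any 1 of the 3 maltose or 3 7 g/kg arrays (0.0625 to 0.129). Fah, the last enzyme of the pathway, gave −0.10 (SE 0.11) and −0.04 (SE 0.11). Hgd, which opens the ring of homogentisate, had marked spots on 9 of 10 arrays and, with these kept, gave −0.12 (SE 0.17) and −0.03 (SE 0.18).

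Serine dehydratase was higher at 7 g/kg. Sds, which deaminates serine and threonine, read −0.16, −0.49 and −0.39 on the maltose arrays, −0.03, 0.54, −0.36 and 0.22 at 5 g/kg, and 0.08, 0.33 and 0.46 on the 7 g/kg arrays. The 7 g/kg arrays lay above all controls, and the 5 g/kg arrays spread over both. The change was 0.44 (SE 0.17) at 5 g/kg and 0.64 (SE 0.19, limma adjusted p 0.0475) at 7 g/kg. This call held under 8 of 23 alternatives. The limma adjusted p was 0.13 on processed signals, 0.157 on the series table and 0.324 on the liver channel alone. With median centring in place of loess it was 0.0985. The call was also lost with slide as a block (adjusted p 0.0629) and without maltose replicate 1, 2 or 3 (0.0635, 0.156 and 0.129). Without 5 g/kg replicate 1 or 4 the adjusted p was 0.0585 and 0.052, and without 7 g/kg replicate 2 or 3 it was 0.122 and 0.158. Sdsl, a related enzyme, gave 0.17 (SE 0.23) and 0.12 (SE 0.25). Agxt, which detoxifies glyoxylate with alanine as donor, gave −0.16 (SE 0.17, n = 2 and 2) and −0.24 (SE 0.16, n = 3 and 2).

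**Figure D2:**
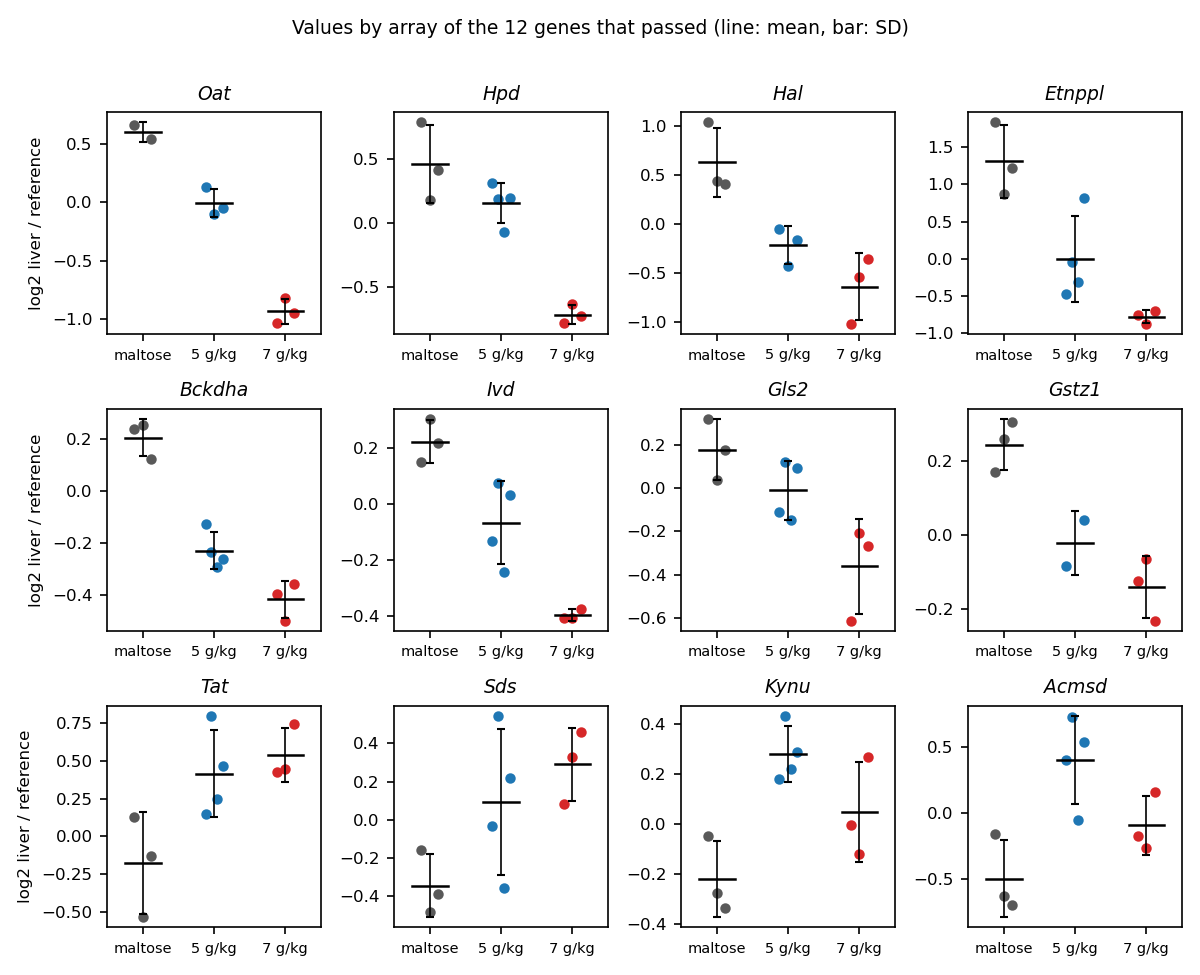
Log2 liver-over-reference ratio (y axis, its own range in each panel) on each array for the 12 members that passed in at least 1 comparison, with maltose in grey, 5 g/kg in blue and 7 g/kg in red. Lines are group means and bars SD. The 7 g/kg arrays lie below all other arrays for Oat, Hpd, Etnppl, Bckdha, Ivd and Gls2, while Kynu and Acmsd have their highest mean at 5 g/kg.

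In tryptophan breakdown the members that passed rose at 5 g/kg. Kynu, the kynureninase, read −0.05, −0.28 and −0.34 on the maltose arrays, 0.18, 0.43, 0.22 and 0.29 at 5 g/kg, and −0.0012, −0.12 and 0.27 on the 7 g/kg arrays. The 5 g/kg arrays lay above all controls, and the 7 g/kg arrays overlapped both groups. The change was 0.50 (SE 0.12, limma adjusted p 0.0271) at 5 g/kg and 0.27 (SE 0.13, adjusted p 0.247) at 7 g/kg. The 5 g/kg call was lost, with adjusted p of 0.1 without maltose replicate 2, 0.13 without maltose replicate 3, 0.0791 without 5 g/kg replicate 2 and 0.0511 without 5 g/kg replicate 4.

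Acmsd, the decarboxylase that steers the pathway away from NAD synthesis, read −0.16, −0.63 and −0.70 on the maltose arrays, 0.40, 0.73, −0.05 and 0.54 at 5 g/kg, and −0.17, −0.26 and 0.16 on the 7 g/kg arrays. The 5 g/kg arrays lay above all controls, while 7 g/kg replicate 1 and maltose replicate 1 were almost level. The change was 0.90 (SE 0.18, limma adjusted p 0.0111), 1.87-fold higher, at 5 g/kg and 0.40 (SE 0.19, adjusted p 0.258) at 7 g/kg. The 5 g/kg call was lost without maltose replicate 2 (adjusted p 0.056) and without maltose replicate 3 (0.0657). The difference between the doses was −0.50 (SE 0.18, adjusted p 0.276) for Acmsd and −0.23 (SE 0.12, adjusted p 0.519) for Kynu, so neither was shown to differ between doses.

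Tdo2, which opens the indole ring as the first step, gave 0.54 (SE 0.19, adjusted p 0.182, n = 2 and 2) at 5 g/kg and 0.13 (SE 0.18) at 7 g/kg. A second probe of Tdo2 gave 0.54 and 0.18. Kmo, the hydroxylase of kynurenine, had marked spots on 9 of 10 arrays and, with these kept, gave −0.11 (SE 0.20) and 0.11 (SE 0.21). The other enzymes of phenylalanine and tryptophan breakdown, a list of 10 genes with 9 tested, gave 1 higher and 3 lower at 5 g/kg and 1 higher and 3 lower at 7 g/kg, with medians of −0.11 and −0.41. Afmid, the formamidase that follows Tdo2, was lower, at −0.55 (SE 0.13, adjusted p 0.0341) at 5 g/kg and −1.52 (SE 0.14, adjusted p 1.555e-05) at 7 g/kg. Of the kynurenine aminotransferases, Aadat was lower, at −0.58 (SE 0.09, adjusted p 0.00323) and −0.97 (SE 0.10, adjusted p 3.901e-05), and Kyat1 was higher, at 0.91 (SE 0.13, adjusted p 0.00145) and 0.88 (SE 0.14, adjusted p 0.00118).

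**Figure D3:**
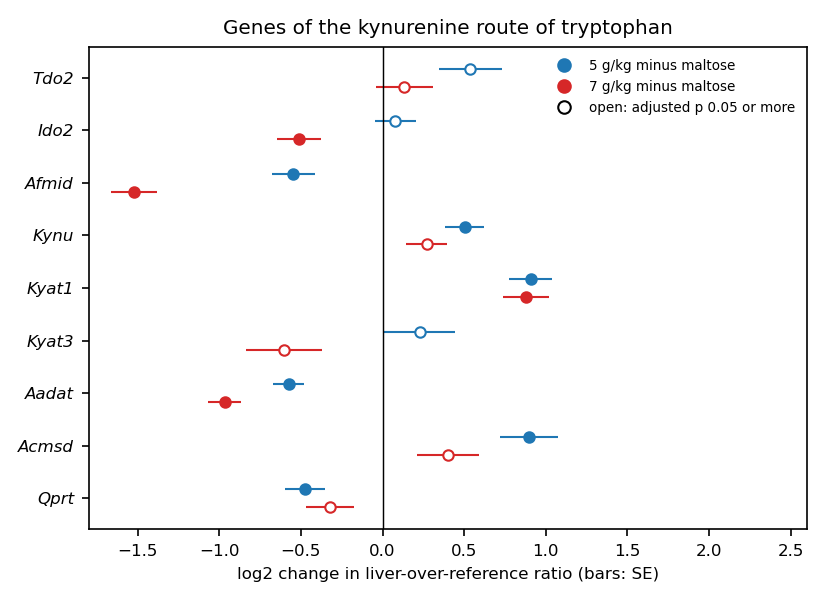
Log2 change (x axis) of genes of the kynurenine route, in blue for 5 g/kg and in red for 7 g/kg against maltose, with SE as bars and filled points for genes that passed. Afmid and Aadat lie left of 0 at both doses and Kyat1 right of 0, while Kynu and Acmsd passed at 5 g/kg alone.

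RNA of 1 subunit of the branched-chain ketoacid dehydrogenase, the committed step of this route, was lower at both doses. Bckdha, the E1 alpha subunit of the ketoacid dehydrogenase, read 0.24, 0.25 and 0.12 on the maltose arrays, −0.13, −0.24, −0.29 and −0.26 at 5 g/kg, and −0.39, −0.50 and −0.36 on the 7 g/kg arrays. The 3 groups did not overlap. The change was −0.43 (SE 0.09, limma adjusted p 0.0178) at 5 g/kg and −0.62 (SE 0.10, adjusted p 0.00115), 1.54-fold lower, at 7 g/kg. Its 5 g/kg call was lost, with adjusted p of 0.082 without maltose replicate 1 and 0.0734 without maltose replicate 2. Bckdhb, the E1 beta subunit, gave −0.16 (SE 0.11) and −0.09 (SE 0.11), and its second probe −0.18 and −0.14. Dbt, the E2 subunit, had marked spots on 5 of 10 arrays and, with these kept, gave 0.08 (SE 0.14) and −0.14 (SE 0.15).

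Ivd, the isovaleryl-CoA dehydrogenase of leucine breakdown, read 0.15, 0.30 and 0.22 on the maltose arrays, −0.13, 0.08, −0.24 and 0.03 at 5 g/kg, and −0.41, −0.41 and −0.37 on the 7 g/kg arrays. The 3 groups did not overlap, and the 7 g/kg arrays lay close together. The change was −0.29 (SE 0.10, limma adjusted p 0.158) at 5 g/kg and −0.62 (SE 0.11, adjusted p 0.00219), 1.53-fold lower, at 7 g/kg. A second probe of Ivd gave −0.42 and −0.54. Both 7 g/kg calls, of Bckdha and Ivd, were lost on the liver channel alone (adjusted p 0.0813 and 0.105). Mccc1, a subunit of the next leucine enzyme, gave −0.13 (SE 0.09) and −0.13 (SE 0.10), while its second probe gave −0.05 and 0.06, with the sign turned at 7 g/kg. Hibch, of valine breakdown, gave −0.10 (SE 0.10) and −0.22 (SE 0.10). Aldh6a1, which ends valine breakdown, had marked spots on 4 of 10 arrays and, with these kept, gave −0.05 (SE 0.11) and −0.32 (SE 0.11, adjusted p 0.101). Of 15 other genes of these pathways, all tested, 1 was lower at 5 g/kg and 2 at 7 g/kg (medians −0.09 and −0.19): Ppm1k, the phosphatase that activates the ketoacid dehydrogenase, at −0.76 (SE 0.17, adjusted p 0.0206) and −1.12 (SE 0.18, adjusted p 0.00113), and Auh, a leucine pathway hydratase, at −0.36 (SE 0.11, not past the threshold) and −0.48 (SE 0.12, adjusted p 0.0187). Mmut, the methylmalonyl-CoA mutase, had −0.22 (SE 0.11) and −0.36 (SE 0.11, adjusted p 0.0528).

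Aass, the first enzyme of lysine breakdown, rested on few arrays. It read 0.19 and −0.62 on maltose (replicates 1 and 3), 0.36, 0.14 and 0.09 at 5 g/kg (replicates 2 to 4) and 0.27 and 1.27 at 7 g/kg (replicates 1 and 2). The change was 0.41 (SE 0.28) at 5 g/kg and 0.98 (SE 0.31, limma adjusted p 0.0751) at 7 g/kg. Over the alternatives the 7 g/kg value of Aass ran from 0.48 (adjusted p 0.434, without 7 g/kg replicate 2) to 1.49 (adjusted p 0.00992, without 7 g/kg replicate 1). It was 0.58 (adjusted p 0.404) without maltose replicate 3 and 1.39 (adjusted p 0.0357) without maltose replicate 1. Each of these 4 fits leaves 1 array in a group, which is assumed to vary like the other groups. With marked spots kept it was 1.06 (adjusted p 0.0162). Of the 4 other lysine genes tested, Dhtkd1, of the aminoadipate step, was lower, at −0.58 (SE 0.13, adjusted p 0.0176) and −0.89 (SE 0.13, adjusted p 0.000719) at 5 and 7 g/kg, and no other passed. Pipox, which oxidises pipecolate, had −0.25 (SE 0.14) and −0.34 (SE 0.15), and Aldh7a1 0.10 (SE 0.13) and −0.11 (SE 0.11). The median of the list was −0.15 and −0.23.

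The lowest change among the members was that of Etnppl, the lyase that breaks phosphoethanolamine down to acetaldehyde, ammonia and phosphate. It read 1.84, 0.87 and 1.22 on the maltose arrays, −0.48, −0.04, −0.31 and 0.82 at 5 g/kg, and −0.76, −0.88 and −0.71 on the 7 g/kg arrays. The 3 groups did not overlap, but 5 g/kg replicate 4 lay just under maltose replicate 2. The change was −1.31 (SE 0.26, limma adjusted p 0.0113), 2.49-fold lower, at 5 g/kg and −2.09 (SE 0.28, adjusted p 0.000273), 4.26-fold lower, at 7 g/kg. Without maltose replicate 1 the 5 g/kg change was −1.05 (adjusted p 0.0712). Within slides it ranged from −2.32 to −0.40 at 5 g/kg and from −1.93 to −1.63 at 7 g/kg.

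**Figure D4:**
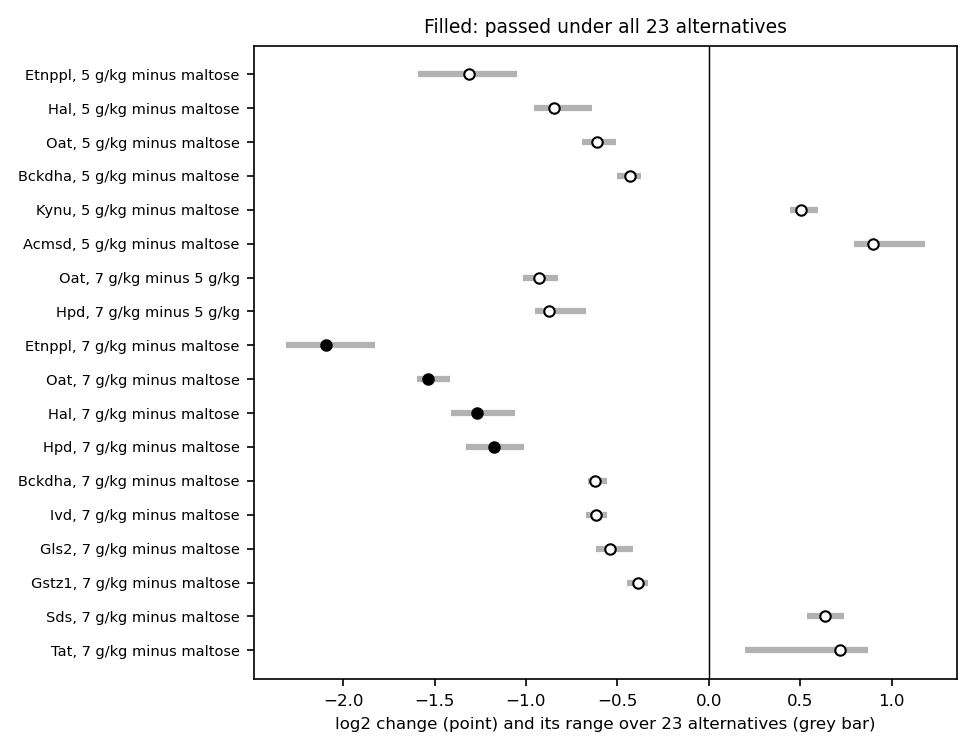
Log2 change of each member call (point) with its range over 23 alternative ways of processing (grey bar); filled points passed under all 23. The bar of every call stays on its side of 0, and the 7 g/kg calls of Etnppl, Oat, Hal and Hpd are the 4 that held throughout.

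Other genes around these pathways were read from lists fixed by name, 82 genes with 71 tested. These lists too were chosen with earlier results of these data known, so their shares only describe the lists. At 7 g/kg 7 were higher and 17 lower (33.8%, beside 9.01% of all genes), and at 5 g/kg 3 were higher and 10 lower (18.3%, beside 3.8%). Of 14 genes of glutamate, proline and transaminase metabolism 9 were tested: 2 were lower at 5 g/kg and 2 at 7 g/kg (medians −0.15 and −0.08). Gpt, the alanine aminotransferase, was at −0.15 (SE 0.12) at 5 g/kg and lower by −0.77 (SE 0.13, limma adjusted p 0.0013) at 7 g/kg. Between the doses its difference was −0.62 (SE 0.12, adjusted p 0.016). Prodh2, which oxidises hydroxyproline, was lower, at −0.49 (SE 0.11, adjusted p 0.0272) and −0.67 (SE 0.12, adjusted p 0.00289).

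Of 12 glycine, serine and threonine genes 10 were tested, with 1 higher and 1 lower at 5 g/kg and 1 higher and 2 lower at 7 g/kg (medians −0.04 and −0.16). Gcat, which splits aminoketobutyrate from threonine, had 0.02 (SE 0.10) at 5 g/kg and was higher, at 0.47 (SE 0.11, limma adjusted p 0.0148) at 7 g/kg. Shmt1, the cytosolic serine hydroxymethyltransferase, had −0.39 (SE 0.12) and −0.52 (SE 0.12, adjusted p 0.0152), and Gcsh, the H protein of glycine cleavage, was lower, at −0.41 (SE 0.11, adjusted p 0.0468) and −0.41 (SE 0.11, adjusted p 0.0366).

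Among amino acid transporters more genes were higher than lower at 7 g/kg. Of 13 transporter genes 11 were tested. At 5 g/kg 1 was higher (9.09%, all genes 3.8%), and at 7 g/kg 4 were higher and 2 lower (54.5%, all genes 9.01%). The medians were 0.05 and 0.17. Slc3a2, the shared heavy chain of several exchangers, had 0.36 (SE 0.10) at 5 g/kg and was higher, at 0.63 (SE 0.11, limma adjusted p 0.00159) at 7 g/kg. Slc6a9, a glycine carrier, had 0.53 (SE 0.15) and was higher, at 0.89 (SE 0.14, adjusted p 0.00219). Slc38a2, a carrier of small neutral amino acids, had −0.04 (SE 0.14) and was higher, at 0.93 (SE 0.16, adjusted p 0.00286). Its difference between the doses was 0.97 (SE 0.16, adjusted p 0.00955). Slc38a2 had no value on 5 g/kg replicate 2 or 7 g/kg replicate 3. Slc6a9 had none on maltose replicate 2 or 5 g/kg replicates 2 and 4. Slc1a2 was lower at 7 g/kg, at −0.44 (limma adjusted p 0.0252). Slc36a1 read 0.21, 0.26 and 0.45 on the maltose arrays and −0.32, −0.86 and −0.26 at 7 g/kg. Of 13 regulators of these genes, all tested, 2 were lower at 5 g/kg and 5 at 7 g/kg, and none was higher by limma (1 at 7 g/kg at an unadjusted p under 0.05), with medians of −0.15 and −0.22. Ppara, a fatty acid receptor, was lower, at −1.26 (SE 0.11, adjusted p 2.811e-05) and −1.15 (SE 0.12, adjusted p 3.875e-05). Klf15, a factor known for control of amino acid breakdown, was lower, at −0.62 (SE 0.13, adjusted p 0.0145) and −0.81 (SE 0.14, adjusted p 0.00182). Cebpa, a hepatocyte factor, had −0.41 (SE 0.14) and was lower, at −0.79 (SE 0.15, adjusted p 0.00315). These are RNA levels of the regulators, and their part in the members' changes was not tested.

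Some markers of other cells moved in the same livers. Over all genes 3.8% passed at 5 g/kg and 9.01% at 7 g/kg. The lists are short, so a share that rests on 1 gene describes that gene and not the list. The mean of the sinusoidal endothelial list (10 tested, 9 well above background on all arrays) was −0.38 to −0.25 on maltose, −0.13 to 0.05 at 5 g/kg and −0.04 to 0.06 at 7 g/kg. In that list 3 genes were higher at each dose (30%), among them Lyve1, a receptor of these cells, at 1.29 and 1.72. The neutrophil list (6 tested, 5 well above background on all arrays) was −0.33 to −0.17, −0.19 to 0.21 and 0.19 to 0.31. At 7 g/kg 2 of its genes were higher (33.3%), S100a8 (1.28) and S100a9 (1.41). The other tested genes of that list did not pass at 7 g/kg, with Retnlg at 0.17, Cxcr2 at 0.05, Elane at 0.02 and Mpo at −0.02. The stellate cell list (9 tested) was −0.23 to −0.03, 0.09 to 0.20 and 0.12 to 0.21, with 2 genes higher at 5 g/kg (22.2%) and 1 at 7 g/kg (11.1%). The lymphocyte list (8 tested) was −0.36 to −0.22, −0.17 to 0.06 and −0.09 to 0.06, with 1 and 2 genes higher (12.5% and 25%). Of 7 tested periportal markers 1 was higher and 2 lower at 7 g/kg (42.9%). The means of that list were −0.07 to 0.31 on maltose, −0.14 to 0.09 at 5 g/kg and −0.33 to −0.01 at 7 g/kg. The Kupffer cell list was −0.33 to −0.12, −0.30 to −0.13 and −0.45 to −0.08 with none of 10 genes past the threshold by limma (1 lower at 7 g/kg at an unadjusted p under 0.05). The cholangiocyte list (6 tested) was −0.08 to 0.01, −0.07 to 0.06 and −0.03 to 0.10, with 1 gene lower at 5 g/kg (16.7%). The adipocyte list (6 tested) was −0.33 to −0.04, −0.19 to −0.02 and −0.08 to 0.14, with 1 gene higher at 7 g/kg (16.7%). The lists of kidney tubule (6 tested) and exocrine pancreas (5 tested) had none past the threshold by limma (1 kidney gene lower at each dose at an unadjusted p under 0.05) and means of −0.07 to 0.11 and −0.22 to −0.03 over all arrays. The part of these cells in the members' changes was not tested.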

How the data were processed

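The deposited files come, per the file headers, from Agilent Feature Extraction 11.5.1.1, which gave the median intensity and local background of each spot, processed intensities and their log10 ratio. The deposited series table holds log2 ratios, a scale read from its slope on the log10 ratio (3.32 to 3.34); its column medians were −0.07 to 0.08, and steps between the 2 are not given in the sources used here. Per the labels, Cy5 was liver and Cy3 the reference. From median intensities, limma 3.58.1 (R 4.3.3) computed normexp correction (offset 50) and loess log2 ratios, without control or outlier-marked spots (2.42% to 5.83%). Probes needed a liver signal well above background on 3 arrays and 2 values in each group. Gene symbols (59.2% of 41174 probes) and promoter windows came from RefSeq, GRCm38.p6; the array design is on mm8, so no probe positions are given. All 10 arrays entered 1 fit of 3 group means with empirical Bayes. The fit was tested on simulated data.

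All members are named; those that passed have values by array. Of each other list the 3 genes with the smallest p at 7 g/kg are named, except 1 gene that is not reported here. Members and lists were chosen with earlier results of these data known. Alternatives changed background correction, normalization, channel, source, filters, probes, moderation, weights and threshold, used slide or replicate number as a block, and left out each array.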

Additional observations from a re-analysis of the deposited data

How the results depend on the processing

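No call of a member changed direction under any alternative tried. Of the 18 calls, 4 held under all 23 alternatives other than thresholds (Etnppl, Oat, Hal and Hpd at 7 g/kg). Not every alternative bears on each call. Leaving out a 5 g/kg array changes the spread but not the difference between 7 g/kg and maltose. Oat had no value on maltose replicate 2 or 5 g/kg replicate 2, and leaving out another maltose array left it 1 maltose value. The count of members past the threshold was 6 at 5 g/kg, 10 at 7 g/kg and 2 between the doses. At 5 g/kg it was 0 on scanner processed signals, on the series table, on the liver channel alone and at a threshold of 0.01 (limma; 11, 12, 8 and 14 members at an unadjusted p under 0.05). At 7 g/kg the count was 6 on scanner processed signals and 4 on the liver channel alone, all lower. It was 6 with slide as a block and 6 at a threshold of 0.01, again all lower. Between the doses it was 0 on the liver channel alone (limma; 3 at an unadjusted p under 0.05). Leaving out each array in turn gave 2 to 6 members at 5 g/kg (2 without maltose replicate 1, both higher; 3 without maltose replicate 2 or 3, all lower), 6 to 11 at 7 g/kg (6 without maltose replicate 3) and 2 to 2 between the doses. With 33 members read, outlier-marked spots kept gave 6, 11 and 2. The cause of these changes was not tested.

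With the replicate number as a block the counts were 3 at 5 g/kg, 9 at 7 g/kg and 2 between the doses, and the Aass change at 7 g/kg was 0.61 (limma adjusted p 0.234). The numbers were not shown to pair the arrays: correlations of same-numbered deviations were −0.203 to 0.197, and an array correlated best with its own number in 4 of 18 matches.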

Other observations

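The glycine decarboxylase Gldc, from the fixed list of glycine, serine and threonine genes, was chosen for mention after its values were seen. It read −0.03, −0.27 and −0.37 on the maltose arrays, 0.36, 0.49, 0.16 and 0.65 at 5 g/kg, and −0.41, −0.86 and −0.50 on the 7 g/kg arrays. All 5 g/kg arrays lay above all controls, and all 7 g/kg arrays below them. The change was 0.64 (SE 0.14, limma adjusted p 0.0194) at 5 g/kg, −0.37 (SE 0.15, adjusted p 0.174) at 7 g/kg and −1.01 (SE 0.14, adjusted p 0.0018) between the doses.

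Ido2, a tryptophan dioxygenase, was also chosen after its values were seen. It read −0.32, 0.06 and 0.12 on the maltose arrays, −0.12, 0.11, −0.0027 and 0.14 at 5 g/kg, and −0.75, −0.42 and −0.50 on the 7 g/kg arrays, below all other arrays. The change was 0.08 (SE 0.13) at 5 g/kg, −0.51 (SE 0.14, limma adjusted p 0.0281) at 7 g/kg and −0.59 (SE 0.13, adjusted p 0.0302) between the doses.

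Afmid, the formamidase, showed steps like those of Oat: 0.43, 0.69 and 0.74 on the maltose arrays, −0.04, 0.29, −0.22 and 0.26 at 5 g/kg, and −0.86, −0.84 and −1.01 on the 7 g/kg arrays, with a difference between the doses of −0.98 (SE 0.13, limma adjusted p 0.00157). Ppm1k, the phosphatase of the ketoacid dehydrogenase, read −0.69, 0.21 and −0.49 at 7 g/kg, with replicate 2 above all 5 g/kg arrays (−0.07 to 0.09).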
